A study of Homo sapiens with 9 samples.

Results

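The comparison described here is that of HepG2 cells carrying the first hairpin against TRIB3 (shTRIB3-1) with HepG2 cells carrying a control hairpin (shCtrl). Its members are 6 of the 9 RNA-seq libraries of the series, with 3 libraries in each group, and the 11265 of 24204 genes whose FPKM (fragments per kilobase of gene, scaled to the depth of the library) reached 1 in at least 3 of the 9 libraries. HepG2 is a human liver cancer cell line. In both groups the hairpin came in on a lentivirus, infection lasted 48 h and puromycin selection of infected cells another 48 h. The other 3 libraries carried a second hairpin against TRIB3 (shTRIB3-2) and serve here only to show where shTRIB3-1 differed. The labels give high-glucose medium with serum for every library, whereas the study's methods describe RNA from glutamine-deprived cells, so the medium at harvest is uncertain and is shared by all groups. Each group stands for 1 hairpin in 1 cell line, and nothing states that the 3 libraries of a group were separate cultures, so p-values measure only the spread between these libraries.

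TRIB3 is a pseudokinase of the Tribbles family, a scaffold protein whose gene is switched on by amino acid shortage and by stress of the endoplasmic reticulum. Several programs that come up below are well known in liver cells. In the heat shock response, heat shock factors bind paired GAA motifs in promoters and switch on cytosolic chaperones, which refold damaged proteins. In the acute-phase response, cytokines such as interleukin-6 make hepatocytes secrete plasma proteins, among them haptoglobin, hepcidin and fibrinogen. Genes for DNA replication and mitosis are repressed together in cells that leave the cell cycle, in large part through the DREAM complex, which binds CHR and E2F sites in their promoters. CCAAT boxes, which the factor NF-Y binds, are also common in promoters of mitotic genes.

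The sites in TRIB3 that the hairpins target are shown first, since they define the groups. Both were found in the coding sequence of the reference transcript of TRIB3 (GRCh38, plus strand, GENCODE), and capitals mark the bases opposite positions 2 to 8 of the antisense strand, its seed.
shTRIB3-1: tggatgacaacttAGATACCg
shTRIB3-2: gccgtgctcttccGCCAGATg
The shTRIB3-1 site lies at chr20:388072-388092, in exon 2, at bases 472 to 492 of the transcript, and 4 of 4 annotated TRIB3 transcripts hold it. The shTRIB3-2 site lies at chr20:391473-391493, in exon 3, at bases 888 to 908, and 3 of 4 transcripts hold it.

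TRIB3 itself (chromosome 20, 380760 to 397559) was read first as a check of the labels. It stood at 67.9, 65.8 and 66.6 FPKM in the shCtrl libraries and at 34.1, 32.7 and 34.0 FPKM in the shTRIB3-1 libraries, from 7372 to 7504 and from 3464 to 3657 fragments. The groups did not overlap, and 50.3% of the control level was left. By limma the log2 difference from shCtrl was -0.99 (SE 0.0301, adjusted p 5.30e-11), just short of the fold threshold used below. With shTRIB3-2, TRIB3 stood at 20.4 to 20.7 FPKM, and the 2 hairpins differed by 0.71 on the log2 scale (adjusted p 9.54e-09), so shTRIB3-1 was the weaker knockdown.

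Depth ran from 34206726 to 36311029 fragments over the 9 libraries. Of 12 hepatocyte markers, 12 were detected at a mean of at least 1 FPKM in each group, with summed levels of 11567 to 12378 FPKM in shCtrl and 12232 to 12711 FPKM in shTRIB3-1. Of 14 markers of other cell types, 3 reached a mean of 1 FPKM in either group, the summed levels were 88.8 to 100 FPKM in shCtrl and 77.5 to 83.2 FPKM in shTRIB3-1, and 3 and 2 of them were at 0. CD3E, a T-cell marker, was at 0 in both groups. Mitochondrial genes took 5.3 to 6.1% of fragments in shCtrl and 6.29 to 7.01% in shTRIB3-1. The labels give no batch.

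Lowering TRIB3 with this hairpin went with changes in many transcripts, in both directions. A gene was called when its limma adjusted p was under 0.05 and its absolute log2 difference above 1, and 1294 genes were called, 11.5% of those tested. Of these, 607 were higher (5.39% of tested genes) and 687 lower (6.1%). At any fold, 3701 genes (32.9%) were higher and 4678 (41.5%) lower at an adjusted p under 0.05, so the fold threshold set the number of calls. Of the 1294 called genes, 1292 did not overlap between the 3 shTRIB3-1 and the 3 shCtrl libraries, which the call itself nearly requires. Lack of overlap was also common without a call, as for 39 of 77 ribosomal protein genes, of which 0 were called. The share over all tested genes is not given here, so this count adds no support. TCEAL9 lay just inside the fold threshold, at a log2 difference of 1.0002, and CCDC92 just outside, at 0.9997. ALPK2 lay just inside the filter on low values, with 1.0009087 FPKM as the third highest of its 9 values, and LOC105379101 just outside, with 0.9999563.

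The rises reached further than the falls. A log2 difference beyond 2 was seen for 170 higher and 74 lower genes, beyond 3 for 73 and 5, beyond 4 for 29 and 1, and beyond 5 for 14 and 0. Much of this spread lay in genes that were close to silent in shCtrl. Of the 607 higher genes, 164 (27%) had a control mean under 0.5 FPKM, against 180 (1.6%) of all tested genes, but a gene that low entered the test through a knockdown group and so had to be higher there. With all 3 shCtrl libraries at 1 FPKM or more, 341 genes were called higher. Among the 100 genes most abundant in shCtrl, 2 were called higher and 7 lower. The higher ones were HSP90AA1, a cytosolic chaperone, and TMSB10, an actin-binding peptide, and the lower ones were FGA and FGG, chains of fibrinogen, APOH, LYZ, SPP1, PLA2G2A and PTMA. Long noncoding RNA genes were called about as often in each direction, with 55 of 573 tested (9.6%) higher and 60 (10.5%) lower, against 5.12% and 5.87% of 10459 protein-coding genes.

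**Figure D1:**
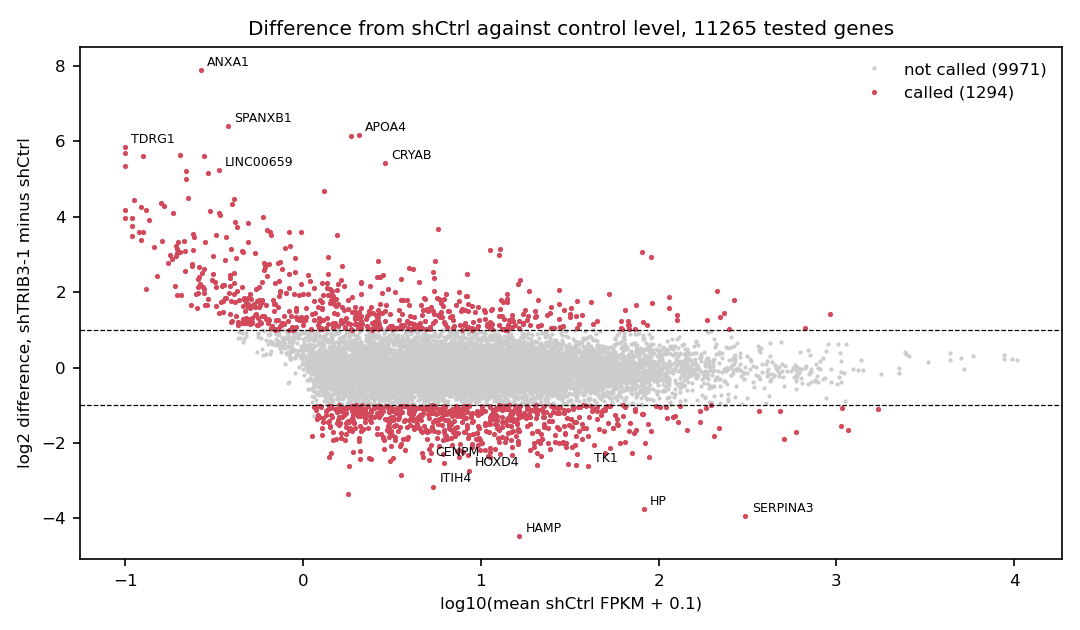
Each point is 1 of 11265 tested genes, with log10 of the mean shCtrl FPKM plus 0.1 on the x axis and the log2 difference, shTRIB3-1 minus shCtrl, on the y axis. Dashed lines mark the fold threshold. The 1294 called genes are in red, and the rises beyond a log2 difference of 4 sit mostly at low control levels.

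The 12 genes with the largest rises, among called genes with at least 5 FPKM in the higher group, were ANXA1, SPANXB1, APOA4, HSPA6, TDRG1, CD300LB, KLK6, PRR20G, CD52, CRYAB, LINC00659 and LOC105378690. ANXA1 (chromosome 9, 73151865 to 73170393), a calcium-dependent phospholipid-binding protein, rose the most. It stood at 0.151, 0.199 and 0.151 FPKM in shCtrl and at 61.1, 66.3 and 61.2 FPKM in shTRIB3-1, from 30 fragments in all control libraries together to 10788. The log2 difference was 7.88 (SE 0.0729, adjusted p 6.69e-15), and over all alternative settings it ran from 5.77 to 8.49. APOA4 (chromosome 11, 116820700 to 116823304), an apolipoprotein of intestinal and hepatic lipoproteins, stood at 1.99, 1.72 and 2.20 FPKM in shCtrl and at 147, 151 and 146 FPKM in shTRIB3-1, a log2 difference of 6.16. Antisense annotation covers 43.2% of the exon bases of APOA4, and whether counting used the strand is not stated.

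Genes that are best known from testis or blood cells were among these rises. SPANXB1 (chromosome X, 141002594 to 141003706), a cancer-testis gene, went from 0.177 to 0.480 FPKM in shCtrl to 26.2 to 34.6 FPKM in shTRIB3-1, from 14 fragments in all to 1455. It belongs to a family of near-identical copies, so its reads may be shared. TDRG1 and CD300LB had 0 fragments in all 3 shCtrl libraries and 689 and 1215 in the shTRIB3-1 libraries, at least 240-fold and 423-fold higher against a floor of 3 fragments over the group. Antisense annotation covers 54.9% of the exon bases of TDRG1, and 20.5% of those of KLK6, a secreted kallikrein that rose by 5.63. PRR20G rose from 3 fragments to 667, a ratio of 232 with an exact 95% interval of 79.1 to 1129 that covers counting error only. CD52, a surface peptide of lymphocytes, went from 0.419, 0 and 0.12 FPKM to 10.3, 11.3 and 11 FPKM, a log2 difference of 5.60. The general leukocyte marker PTPRC had 0 fragments in shCtrl and at most 1 fragment in any library.

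Under the same limit of 5 FPKM, the 12 largest falls were HAMP, SERPINA3, HP, ITIH4, HOXD4, TK1, KIF20A, CCNA2, DEPP1, KIF18B, CENPM and FANCI. The first 4 encode secreted liver proteins of the acute-phase response and are described with that group. TK1, KIF20A, CCNA2, KIF18B, CENPM and FANCI act in DNA synthesis, cell division or DNA repair. HOXD4 (chromosome 2, 176151550 to 176153226), a homeobox transcription factor, stood at 8.16, 8.35 and 8.94 FPKM in shCtrl and at 1.21, 1.28 and 1.10 FPKM in shTRIB3-1, a log2 difference of -2.73 (adjusted p 7.10e-11). DEPP1 (chromosome 10, 44976128 to 44978809), a FOXO-induced regulator of autophagy, fell from 27.9, 32.3 and 32.1 FPKM to 5.35, 5.13 and 4.88 FPKM, a log2 difference of -2.56, with antisense annotation over 23.3% of its exon bases.

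Of the heat shock proteins, those of the cytosol led the rises with shTRIB3-1. The list also holds the mitochondrial chaperones HSPD1 (log2 difference 0.62) and HSPE1 (0.58). Of its 27 tested members, 11 were called higher and 0 lower, against 5.39% and 6.1% of all tested genes. At any fold 25 were higher, against 32.9% of all tested genes. The median log2 difference of the list was 0.62, against -0.06 over all tested genes. The list took 1.27, 1.29 and 1.28% of the summed FPKM in the shCtrl libraries, 2.31, 2.44 and 2.34% in shTRIB3-1, and 1.28, 1.29 and 1.31% in shTRIB3-2. The share was thus higher in each shTRIB3-1 library than in each of the other 6. Under all alternatives 10 or 11 members were called higher. The rises were largest for Hsp70 genes and small heat shock proteins, followed by co-chaperones and the HSP90 machinery.

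Among the Hsp70 genes, HSPA6 (chromosome 1, 161524540 to 161526894) is the one known to be nearly silent without stress. It stood at 1.78, 1.98 and 1.52 FPKM in shCtrl, at 128, 137 and 126 FPKM in shTRIB3-1 and at 25.8, 26.6 and 28.1 FPKM in shTRIB3-2. The log2 difference of shTRIB3-1 was 6.14 from shCtrl (SE 0.0752, adjusted p 3.62e-14) and 2.27 from shTRIB3-2 (adjusted p 1.03e-09). HSPA1A (chromosome 6, 31815543 to 31817942), the main inducible Hsp70 gene, stood at 80.3, 82.4 and 78.6 FPKM in shCtrl, 691, 722 and 623 FPKM in shTRIB3-1 and 168, 175 and 172 FPKM in shTRIB3-2. That is a log2 difference of 3.07 from shCtrl and 1.98 from shTRIB3-2. Its near-identical neighbour HSPA1B gave 2.93 and 1.98, and reads of the pair, and some of HSPA6, cannot be assigned with certainty. Another annotated gene on the same strand covers 36.6% of the exon bases of HSPA1B. The constitutive HSPA8, with 872 FPKM in shCtrl and 1177 FPKM in shTRIB3-1, differed by 0.43, short of a call.

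The small heat shock proteins hold unfolded proteins until they are refolded. HSPB1 stood at 227, 210 and 206 FPKM in shCtrl, 897, 869 and 842 FPKM in shTRIB3-1 and 180, 199 and 187 FPKM in shTRIB3-2. It was higher than control with shTRIB3-1 (log2 difference 2.02, adjusted p 6.63e-12) and lower with shTRIB3-2 (-0.18, adjusted p 0.00361). CRYAB, the small heat shock protein of lens and muscle, stood at 3.04, 2.82 and 2.53 FPKM in shCtrl, 127, 129 and 117 FPKM in shTRIB3-1 and 23.1, 24.4 and 22.9 FPKM in shTRIB3-2. Antisense annotation covers 13.6% of the exon bases of CRYAB. HSPB8, which works with BAG3 in the selective autophagy of misfolded proteins, rose with both hairpins, at log2 differences from shCtrl of 2.82 and 2.43 (2.22e-04 as the limma adjusted p between the hairpins).

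Co-chaperones of Hsp70 rose in the same libraries. BAG3, which releases clients from Hsp70, stood at 36.7, 33.8 and 33.5 FPKM in shCtrl, 123, 118 and 114 FPKM in shTRIB3-1 and 42.2, 42.8 and 44.5 FPKM in shTRIB3-2. DNAJB1, the Hsp40 that delivers clients to Hsp70, stood at 33.1, 32.0 and 31.4 FPKM in shCtrl and at 95.7, 102 and 94.5 FPKM in shTRIB3-1, a log2 difference of 1.59. HSPH1, a nucleotide exchange factor, rose by 1.96, HSP90AA1 by 1.06 and its partner FKBP4 by 1.04. SERPINH1, a collagen chaperone of the endoplasmic reticulum that is also heat-inducible and stands outside the list, rose by 2.06 from 27.4 FPKM in shCtrl and was 1.54 above shTRIB3-2. The transcript of the factor HSF1 itself was at 27.4 FPKM in shCtrl and 27.8 FPKM in shTRIB3-1 (adjusted p 0.656).

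**Figure D2:**
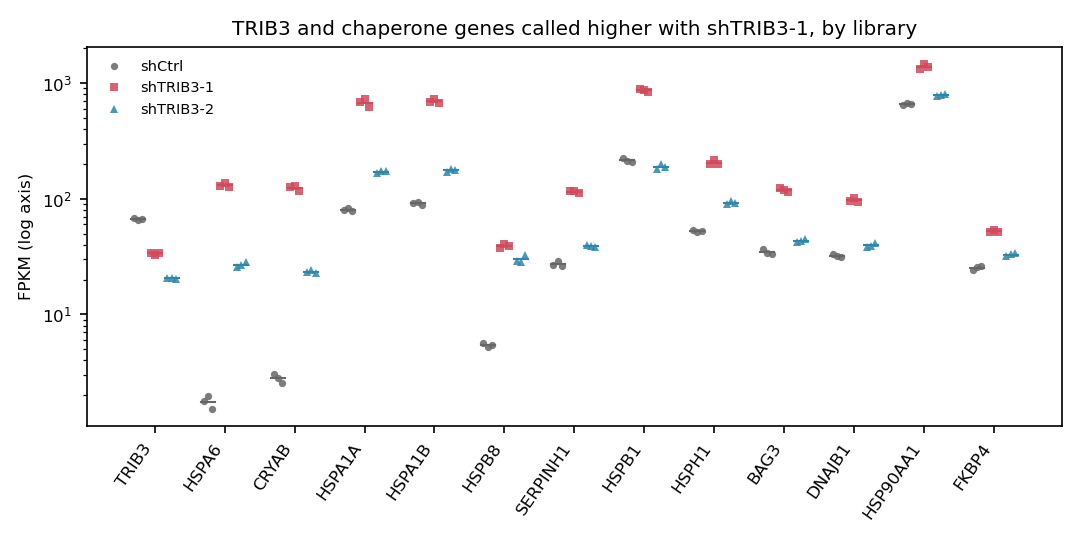
FPKM on a log axis for TRIB3 and 12 chaperone and co-chaperone genes called higher with shTRIB3-1, 3 points per group for the 3 libraries and a bar at their mean. TRIB3 was at 32.7 to 34.1 FPKM in shTRIB3-1 and 20.4 to 20.7 in shTRIB3-2, while the shTRIB3-1 libraries lay above both other groups for each chaperone gene plotted.

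The promoters of these genes were read for the element that heat shock factors bind. The 250 bases before the start were taken from RefSeq (GRCh38.p14), and 9088 of the 11265 tested genes had a window. The motif searched was the pair GAANNTTC or TTCNNGAA. Each of these reads the same on both strands, and they overlap each other in triplets. It was found in 11.6% of all 35116 windows and in 11.7% of tested genes with a window. Of the heat shock list, 16 of 24 members with a window held it (66.7%), and so did 7 of 9 of the members called higher. The list was written from general knowledge of such genes, so its share describes the list and not which members moved. BAG3 and HSPH1 held no match in this window. Of the 607 genes called higher, 62 of 455 with a window held it (13.6%). The windows of 3 members, the leading inducible Hsp70 genes and the small heat shock protein that was not higher with shTRIB3-2, are shown on the plus strand with the matched pairs in capitals.
HSPA6, chr1:161524290-161524539: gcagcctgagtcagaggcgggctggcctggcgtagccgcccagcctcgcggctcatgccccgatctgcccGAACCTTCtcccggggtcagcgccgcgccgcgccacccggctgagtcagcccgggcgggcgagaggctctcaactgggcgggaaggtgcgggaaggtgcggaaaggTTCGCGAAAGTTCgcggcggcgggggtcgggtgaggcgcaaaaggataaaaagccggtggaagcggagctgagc
HSPA1A, chr6:31815293-31815542: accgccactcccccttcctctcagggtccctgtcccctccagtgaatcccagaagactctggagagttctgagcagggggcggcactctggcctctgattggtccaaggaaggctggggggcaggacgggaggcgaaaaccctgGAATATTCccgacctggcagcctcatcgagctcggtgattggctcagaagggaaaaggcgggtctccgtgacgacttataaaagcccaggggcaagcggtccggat
HSPB1, chr7:76302423-76302672: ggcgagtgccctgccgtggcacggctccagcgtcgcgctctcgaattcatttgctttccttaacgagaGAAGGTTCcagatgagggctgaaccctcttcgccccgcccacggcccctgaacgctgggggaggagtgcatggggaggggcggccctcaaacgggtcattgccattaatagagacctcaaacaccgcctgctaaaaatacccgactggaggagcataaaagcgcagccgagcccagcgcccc
HSPA6 held 3 matches, of which the last pair overlap, and HSPA1A and HSPB1 held 1 match each. A match describes the letters in the window and was not tested as a binding site.

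Genes of mitosis and DNA replication fell together. Of 65 tested mitotic kinases, spindle and kinetochore genes, 57 were called lower and 0 higher (87.7% called, against 11.5% of all tested genes). At any fold 65 were lower, against 41.5% of all tested genes, and the median log2 difference was -1.61. Of 48 DNA replication genes, 36 were called lower and 0 higher, with a median of -1.33. The homologous recombination and Fanconi list had 21 of 36 lower and a median of -1.19, cohesin and condensin 11 of 22 and -1.04, and cyclins, CDKs, E2F and DREAM genes 18 of 42 and -0.93. No member of these 5 lists was called higher. Over all alternatives, 44 to 57 mitotic and 27 to 39 replication genes were called lower.

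KIF20A (chromosome 5, 138179112 to 138187723), a kinesin of the central spindle, fell the most among mitotic genes. It stood at 20.4, 20.6 and 20.8 FPKM in shCtrl, 3.05, 3.40 and 3.64 FPKM in shTRIB3-1 and 0.992, 0.780 and 0.920 FPKM in shTRIB3-2, a log2 difference of -2.58 from shCtrl (SE 0.0858, adjusted p 1.04e-10). KIF18B and KIF15, further mitotic kinesins, differed by -2.52 and -2.37, and CENPM, a centromere protein, by -2.44. CCNA2, cyclin A of S and G2 phase, went from 34.9, 33.2 and 34.9 FPKM to 5.78, 5.57 and 5.63 FPKM. TOP2A, which untangles sister chromatids, went from 84.1 to 89.9 FPKM in shCtrl to 15.8 to 17.7 FPKM in shTRIB3-1, a log2 difference of -2.36, and the condensin subunit NCAPH fell by 2.21 on the log2 scale. None of these groups of libraries overlapped.

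The replication genes included the origin factors MCM2 (log2 difference -2.16), MCM5 (-2.12), CDC45 (-2.08) and ORC6 (-2.03), with antisense annotation over 23.6% of the exon bases of MCM2. TK1 (chromosome 17, 78174079 to 78187204), the S-phase thymidine kinase, stood at 38.6, 40.4 and 40.3 FPKM in shCtrl and at 6.52, 6.34 and 6.33 FPKM in shTRIB3-1, a log2 difference of -2.62. RRM2, the S-phase subunit of ribonucleotide reductase, fell from 43.0, 42.8 and 44.2 FPKM to 10.4 FPKM in each library. Of 29 nucleotide synthesis genes, 6 were called lower and 0 higher, with a median of -0.53. That is 20.7% called, against 11.5% of all tested genes. Of the repair genes, FANCI fell by 2.37, RAD54L by 2.05 and BLM by 1.95 on the log2 scale. UHRF1, HELLS and DNMT1, which maintain DNA methylation behind the fork, fell by 2.33, 1.69 and 1.14. They were 3 of 13 methylation and polycomb genes called (23.1%), with 0 higher and a list median of -0.13.

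By list medians, these falls were smaller than with the stronger knockdown, except in nucleotide synthesis, at -0.53 with shTRIB3-1 and -0.51 with shTRIB3-2. Against shTRIB3-2, 64 of 65 mitotic and 43 of 48 replication genes were higher in shTRIB3-1 at a limma adjusted p under 0.05, with 1 and 0 lower. So were 22 of 36 repair, 12 of 22 cohesin and condensin and 27 of 42 cyclin-list genes, with 4, 2 and 4 lower. The medians with shTRIB3-2 were -2.77 for mitotic and -2.09 for replication genes. Over all tested genes, 5159 (45.8%) differed between the hairpins in either direction. That share is not split by direction here. The mitotic genes thus stood in the same order of groups as TRIB3, shCtrl above shTRIB3-1 above shTRIB3-2. The order was not particular to them. Ribosomal protein genes had it by their medians, at -0.11 with shTRIB3-1 and -0.46 with shTRIB3-2, and 70 of 77 were above shTRIB3-2 and 0 below. Whether the level of TRIB3 sets this order was not tested. The heat shock genes were in another order, with shTRIB3-1 above shTRIB3-2 for 24 of 27 and below it for 0.

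**Figure D3:**
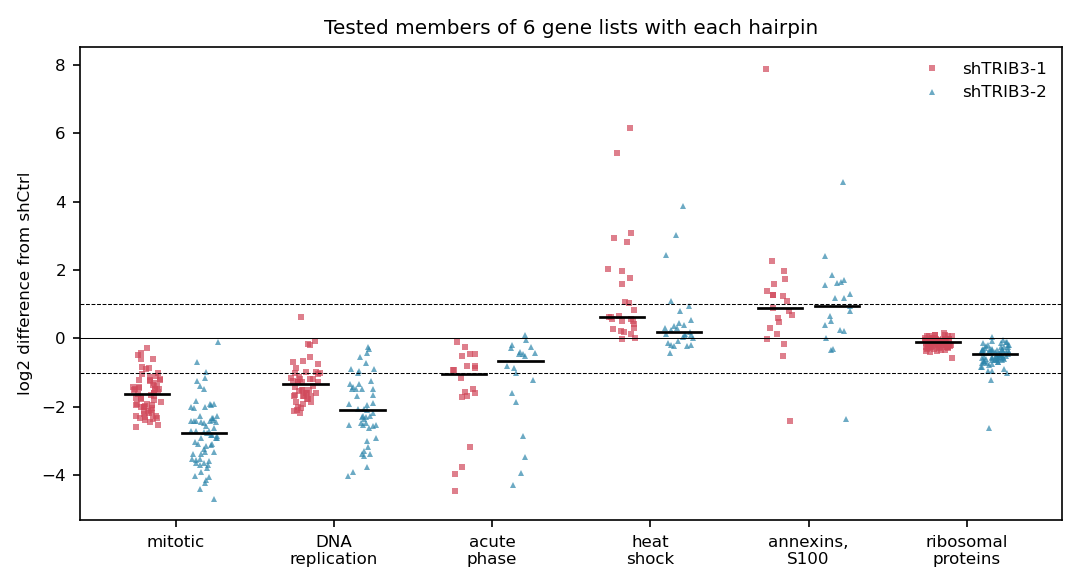
Log2 difference from shCtrl of every tested member of 6 lists, red squares for shTRIB3-1 and blue triangles for shTRIB3-2, with a black bar at the median and dashed lines at the fold threshold. Mitotic genes had medians of -1.61 and -2.77 and heat shock genes of 0.62 and 0.20, and both hairpins share the same 3 control libraries.

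The CHR element was counted in the same promoter windows. The letters searched were TTTGAA and its complement TTCAAA, found in 13.3% of all windows and 11.8% of tested genes with one. Of 55 mitotic genes with a window, 22 held it (40%), against 0 of 40 replication genes. CCAAT or ATTGG was found in 41 of the 55 mitotic genes (74.5%), in 24 of 40 replication genes (60%) and in 41.7% of tested genes. CDC20, the activator of the anaphase-promoting complex, is shown because it had the largest fall among called mitotic genes that held a CHR match in a window without any annotated exon, with the CHR letters in capitals.
CDC20, chr1:43358731-43358980: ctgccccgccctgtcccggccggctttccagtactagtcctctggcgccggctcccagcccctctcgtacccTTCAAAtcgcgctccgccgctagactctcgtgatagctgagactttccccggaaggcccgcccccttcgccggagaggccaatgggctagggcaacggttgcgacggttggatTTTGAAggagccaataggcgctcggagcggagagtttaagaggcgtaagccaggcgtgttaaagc
CDC20 stood at 62.8, 60.9 and 58.1 FPKM in shCtrl and at 15.5, 14.8 and 14.9 FPKM in shTRIB3-1, a log2 difference of -2.0 (SE 0.0394, adjusted p 2.18e-12).

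Plasma proteins of the acute-phase response were the other group that fell as a whole. Of 20 tested members, 10 were called lower and 0 higher, against 6.1% and 5.39% of all tested genes. At any fold 20 of 20 were lower, against 41.5% of all tested genes. The median log2 difference was -1.04, against -0.06 over all tested genes. HAMP (chromosome 19, 35282528 to 35285143), which encodes the iron hormone hepcidin, was the 1 gene that fell by more than 4 on the log2 scale. It stood at 16.6, 16.6 and 16.2 FPKM in shCtrl and at 0.864, 0.862 and 0.354 FPKM in shTRIB3-1, from 720 fragments in all to 29, a log2 difference of -4.46 (SE 0.239, adjusted p 6.18e-09). SERPINA3 (chromosome 14, 94612391 to 94624053), a protease inhibitor, stood at 272, 321 and 332 FPKM in shCtrl and at 19.4, 19.3 and 20.6 FPKM in shTRIB3-1, a log2 difference of -3.95. HP, haptoglobin, went from 74.4, 85.9 and 87.4 FPKM to 5.56, 6.18 and 6.28 FPKM, a log2 difference of -3.76. Reads of HP and its relative HPR may be shared, and another gene on the same strand covers 31.7% of the exon bases of SERPINA3 and 70.3% of those of ITIH4.

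Of the fibrinogen chains, FGG averaged 1160 FPKM in shCtrl and 364 FPKM in shTRIB3-1, and FGA 1056 and 360 FPKM, log2 differences of -1.67 and -1.55. C3, the central complement protein, with 401 FPKM in shCtrl and 210 FPKM in shTRIB3-1, and FGB, with 196 and 103 FPKM, stayed short of a call at -0.93 and -0.92. ORM1 and ORM2 differed by -0.24 and -0.11. With shTRIB3-2 the list median was -0.65. Tested against shTRIB3-2, 14 of 20 members were lower and 2 higher in shTRIB3-1 at an adjusted p under 0.05, whereas 1 of 65 mitotic genes was lower and 64 higher. Of all tested genes, 45.8% differed between the hairpins by that rule, in either direction. Complement and coagulation factors had a median of -0.52, and 20 of 31 were below and 0 above shTRIB3-2. Of the 31, 8 were called lower and 1 higher, which is 29% against 11.5% of all tested genes. They included C5, from 48.1 to 52.4 FPKM in shCtrl to 9.61 to 10.9 FPKM in shTRIB3-1 (log2 difference -2.27), SERPING1, the C1 inhibitor (-2.42), C8B of the membrane attack complex (-1.84), and PLG, plasminogen, which rose by 1.95.

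Regulators of that response moved less. Of 22 genes of interleukin-6 and STAT3 signalling, 1 was called higher and 1 lower, with a median of -0.43. That is 9.09% called, against 11.5% of all tested genes. IL6R, the receptor, rose from 13.2, 13.3 and 12.7 FPKM to 32.1, 34.7 and 33.9 FPKM, a log2 difference of 1.36. CEBPD, a transcription factor induced in the acute phase, fell from 15.0, 14.3 and 18.3 FPKM to 5.60, 5.45 and 5.83 FPKM, a difference of -1.47. STAT3 differed by -0.19. Of 25 hepatocyte transcription factors 4 were called lower, among them NR1H4, the bile acid receptor (-1.45), ONECUT1 (-1.08) and ZHX2 (-1.03), with 0 higher and a median of -0.23. HNF4A, with 46.7 FPKM in shCtrl and 39.8 FPKM in shTRIB3-1, was among the hepatocyte markers, of which 1 of 12 was called, TTR, transthyretin, at 1.08. With a pseudocount of 1 in place of 0.1, ONECUT1 and ZHX2 lost their calls, at -0.83 and -0.87. Of 26 iron handling genes 3 were called lower and 0 higher, HAMP, CP, which oxidises iron for transport (-1.60), and SMAD5 of the BMP pathway (-1.33), with a median of -0.12. The iron list thus had 11.5% of its members called, the same share as all tested genes.

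**Figure D4:**
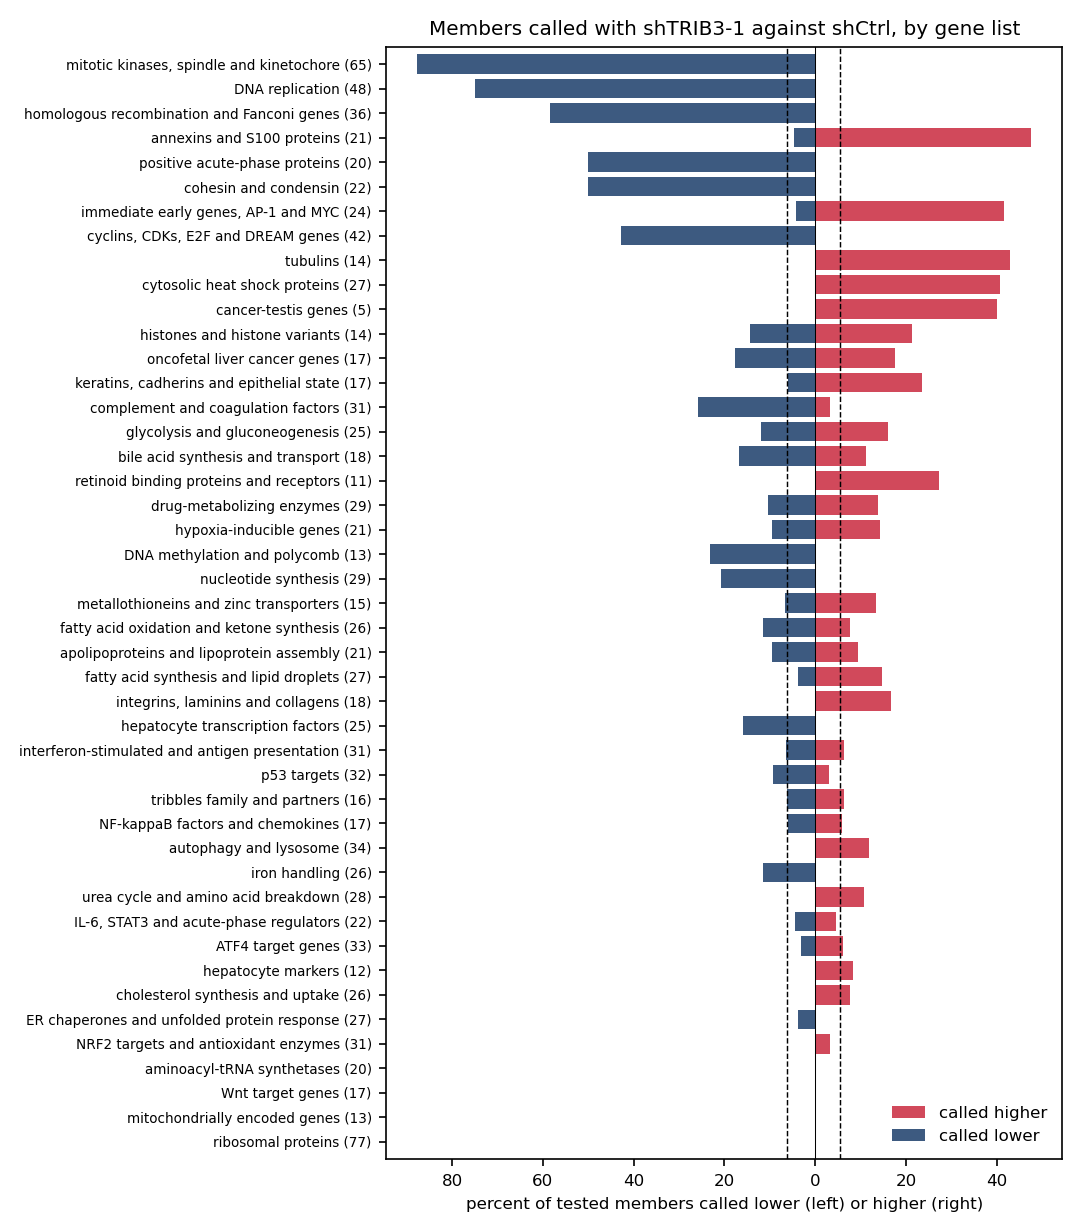
Percent of tested members of each gene list, with the number tested in brackets, that were called lower (blue, to the left) or higher (red, to the right) with shTRIB3-1 against shCtrl. Dashed lines mark the shares of all tested genes, 6.1% lower and 5.39% higher, and the mitotic list reaches 87.7% lower.

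Annexins and S100 proteins, calcium-binding proteins of the membrane and cytoskeleton, led the lists that rose. Of 21 tested members 10 were called higher and 1 lower, against 5.39% and 6.1% of all tested genes. The median log2 difference was 0.89. With shTRIB3-2 the list median was 0.94. Tested between the hairpins, 4 members were higher and 4 lower in shTRIB3-1, so the rise of the list was not particular to it. Beside ANXA1, the members called higher included S100A3 (2.25), S100A4 (1.98), ANXA3 (1.73) and S100A11 (1.58). ANXA13 was the one that fell, by 2.41. S100A10, the partner of annexin A2, went from 188 to 454 FPKM and S100A6 from 127 to 332 FPKM, so the rise was not limited to genes of low level. Of 14 tubulins 6 were called higher and 0 lower, with a median of 0.29, against 0.39 with shTRIB3-2. That is 42.9% called, against 11.5% of all tested genes. TUBA1A stood at 14.2, 12.1 and 12.2 FPKM in shCtrl and at 117, 115 and 111 FPKM in shTRIB3-1, a difference of 3.15, and TUBB2B differed by 2.54. The abundant TUBB and TUBA1B differed by -0.03 and -0.15, and tubulin genes are similar enough for reads to be shared.

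Immediate early and AP-1 genes respond to growth factors and stress within minutes. Of 24 tested members 10 were higher and 1 lower, with a median of 0.68. That is 45.8% called, against 11.5% of all tested genes. With shTRIB3-2 the list median was 0.83, and between the hairpins 7 members were higher and 6 lower in shTRIB3-1. DUSP5 (chromosome 10, 110497907 to 110511533), a nuclear phosphatase of ERK, stood at 6.23, 5.64 and 5.06 FPKM in shCtrl and at 71.8, 77.5 and 70.5 FPKM in shTRIB3-1, a log2 difference of 3.68. DUSP1, which acts on p38 and JNK, went from 15.8, 15.5 and 16.9 FPKM to 75.0, 79.3 and 72.3 FPKM. The transcription factors KLF4 and KLF6 rose by 2.78 and 1.74, and FOSL1 by 1.48. MYCN, a relative of MYC, fell by 1.07, while MYC differed by 0.16.

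A few cell-surface and matrix genes were called. Of 18 integrins, laminins and collagens, 3 were called higher and 0 lower, with a median of 0.38. The list median with shTRIB3-2 was 0.66, and between the hairpins 5 members were higher and 9 lower in shTRIB3-1. Each of the 3 stood apart from shTRIB3-2, but was also called higher with it. All 3 were under 1 FPKM in every shCtrl library. They passed the filter through knockdown libraries, ITGA5 through those of shTRIB3-1 alone, and so had to be higher there. COL6A1 went from 0.558, 0.446 and 0.485 FPKM to 9.53, 9.41 and 8.91 FPKM, LAMB3 from 0.617, 0.492 and 0.554 FPKM to 7.95, 8.45 and 6.96 FPKM, and ITGA5 from 0.0969 to 0.102 FPKM to 1.68 to 2.01 FPKM. Of 17 keratin, cadherin and epithelial genes 4 were higher and 1 lower, with a median of 0.07, and KRT19, a keratin of bile duct cells, went from 225 to 246 FPKM to 606 to 653 FPKM. KRT19 also belongs to the oncofetal liver list, in which 3 of 17 were higher and 3 lower (median -0.07). There CD24, a surface protein of progenitor cells, rose by 2.24, SPINK1 by 2.58, and SPP1, osteopontin, fell from 583 to 608 FPKM to 180 to 181 FPKM. The oncofetal marker AFP was at 195 FPKM in shCtrl and 193 FPKM in shTRIB3-1. Of 11 retinoid genes, 3 were higher and 0 lower (median 0.24). Among them were CRABP2, which carries retinoic acid to its receptor (5.17), and RBP2 (4.99). CRABP2 and RBP2 had 22 and 9 fragments in the 3 control libraries together. The integrin, keratin, oncofetal and retinoid lists had 16.7%, 29.4%, 35.3% and 27.3% called, against 11.5% of all tested genes.

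The lists of lipid and sugar metabolism held single genes with large changes in both directions. Of 27 genes of fatty acid synthesis and lipid droplets, 4 were higher and 1 lower, with a median of 0.04. CIDEC, which fuses lipid droplets, stood at 11.6, 11.3 and 10.8 FPKM in shCtrl and at 99.5, 99.5 and 97.2 FPKM in shTRIB3-1, a log2 difference of 3.13, and PLIN2, a droplet coat protein, went from 215 to 228 FPKM to 547 to 574 FPKM. CIDEB rose by 1.29, but antisense annotation covers 100% of its exon length. Of 26 fatty acid oxidation and ketone genes 2 were higher and 3 lower (median 0.03), with VNN1, a pantetheinase, at 1.71 and PPARGC1A, a coactivator of mitochondrial genes, at -2.23. Of 26 cholesterol genes 2 were called higher and 0 lower, which is 7.69% against 11.5% of all tested genes. At any fold 22 were higher and 2 lower, against 32.9% and 41.5% of all tested genes, and the median was 0.32. Of 21 apolipoprotein genes 2 were higher and 2 lower (median 0.15), among them MTTP, which loads lipid onto apolipoprotein B, at 1.44, and APOH at -1.09. The fatty acid synthesis, fatty acid oxidation and apolipoprotein lists had 18.5%, 19.2% and 19% called, against 11.5% of all tested genes.

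In sugar metabolism the genes of glucose output went in opposite directions. Of 25 glycolysis and gluconeogenesis genes, 4 were higher and 3 lower, with a median of 0.11. PCK1 (chromosome 20, 57561110 to 57568121), which commits carbon to new glucose, stood at 1.45, 1.42 and 1.51 FPKM in shCtrl and at 17.4, 18.2 and 17.7 FPKM in shTRIB3-1, a log2 difference of 3.52. G6PC1, the glucose-6-phosphatase that releases the sugar, fell from 6.30, 7.59 and 7.45 FPKM to 3.02, 2.80 and 3.13 FPKM, and its transporter SLC37A4 fell by 1.10. The glucose transporter SLC2A2 of hepatocytes fell by 2.16, while SLC2A3 rose by 1.52, PFKFB3, which makes the activator of phosphofructokinase, by 1.89 and PFKP, a phosphofructokinase, by 1.79. Hypoxia-inducible genes had 3 of 21 higher and 2 lower (median 0.09), with CA12, a carbonic anhydrase, at 3.05 and LOX, which crosslinks collagen, at -1.87. The sugar and hypoxia lists had 28% and 23.8% called, against 11.5% of all tested genes.

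Enzymes of bile acids and drugs were split as well. Of 18 bile acid genes 2 were higher and 3 lower (median -0.22), with BAAT, which conjugates bile acids, at 2.47 and HSD3B7 at -1.60, antisense annotation covering 64.8% of the exon bases of HSD3B7. Of 29 drug-metabolizing enzymes 4 were higher and 3 lower (median 0.13). The bile acid and drug lists had 27.8% and 24.1% called, against 11.5% of all tested genes. UGT1A1, which conjugates bilirubin, rose by 1.95, although 50.1% of its exon bases are shared with other genes of its locus, and GSTA1, a glutathione transferase, fell by 1.75. CYP2D6 and CYP3A7, both cytochromes P450, were among the lower ones, at -1.89 and -1.03. Of 28 urea cycle and amino acid genes 3 were higher and 0 lower (median -0.25), PRODH, ARG2 and HAL, at 1.73, 1.35 and 1.28. That is 10.7% called, against 11.5% of all tested genes. IGFBP1, the insulin-regulated binding protein in the tribbles list, fell from 329, 374 and 390 FPKM to 167, 158 and 164 FPKM. TRIB1, the relative of TRIB3, rose by 1.16. The tribbles list had 1 of 16 higher, 1 lower and a median of -0.07, with 12.5% called, near the 11.5% of all tested genes.

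The other stress lists had shares of called members from 3.23% (NRF2 targets) to 20% (metallothioneins and zinc transporters), against 11.5% of all tested genes. Of 33 ATF4 targets, 2 were higher and 1 lower (median -0.12), with PPP1R15A at 1.36, ATF3 at 1.15 and PSAT1, the serine synthesis enzyme, at -1.45. Of 27 endoplasmic reticulum chaperones and unfolded protein response genes 0 were higher and 1 lower, CREB3L2 (-1.24), with a median of -0.20. Of 31 NRF2 targets 1 was higher, HMOX1, heme oxygenase (1.15), and 0 lower (median 0.12). Metallothioneins and zinc transporters had 2 of 15 higher and 1 lower (median -0.09), with MT1H and MT1M at 2.21 and 1.36 and the zinc importer SLC39A14 at -1.0, and metallothionein genes are similar enough for reads to be shared. Autophagy and lysosome genes had 4 of 34 higher and 0 lower, with 29 higher at any fold (32.9% of all tested genes were) and a median of 0.44, led by CTSL, a lysosomal protease (1.3), and ULK1 (1.17). Of 32 p53 targets 1 was higher and 3 lower (median -0.31), among them PMAIP1 at 1.13 and ZMAT3 at -1.42.

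The interferon and NF-kappaB lists were called about as often as all tested genes, at 12.9% and 11.8% against 11.5%. Of 31 interferon and antigen presentation genes 2 were higher and 2 lower (median 0.00), OAS1 and ISG20 at 1.61 and 1.32, and PSMB9 and IFIH1 at -1.83 and -1.45. Of 17 NF-kappaB and chemokine genes 1 was higher and 1 lower (median 0.12), IL32 at 1.26 and CXCL2 at -1.41. Of 14 histone genes 3 were higher and 2 lower (median 0.21), the variants H2AX and H2AZ2 being the lower ones, at -1.44 and -1.19. Of 19 cancer-testis genes 5 were tested, and 2 of these were higher with 0 lower (median 0.20). Those 2, SPANXB1 and MAGEB2, were under 1 FPKM in every shCtrl library. They passed the filter through knockdown libraries and had to be higher there, so this count tests nothing. In 5 lists no member was called, with 0 higher and 0 lower by limma, namely 20 aminoacyl-tRNA synthetases, 17 Wnt targets, 13 mitochondrially encoded genes, 77 ribosomal proteins and 3 tested markers of other cell types. At an adjusted p under 0.05 and any fold these lists had 6, 2, 11, 2 and 2 members higher and 9, 13, 1, 38 and 1 lower. Of all tested genes, 32.9% were higher and 41.5% lower by that rule. Over the alternatives, voom included, these counts of calls stayed at 0, except for 1 Wnt target lower with TPM and without shCtrl replicate 3.

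The genes moved by this hairpin only, or further by it than by the other, were read in 2 ways. First, 273 genes (2.42% of tested genes), 120 higher and 153 lower, were called with shTRIB3-1 and not in the same direction with shTRIB3-2. Most of these had missed the call with shTRIB3-2 by little. With shTRIB3-2, 266 of 273 had the same sign, 234 had a log2 difference between 0.5 and 1 in the same direction, and 36 lay within 0.5 of 0, and the median in the direction of shTRIB3-1 was 0.797. Both comparisons use the same control libraries, so this likeness is in part built in. Tested directly, 201 of the 273 differed between the hairpins at an adjusted p under 0.05, 95 higher and 106 lower, and 72 did not. By list, 7 of the 273 were heat shock genes, 4 histone genes, 3 glycolysis and gluconeogenesis genes and 3 acute-phase genes, and the other lists had 2 or fewer.

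Second, shTRIB3-1 stood apart from both other groups, at a log2 difference above 1 and an adjusted p under 0.05 against each and in the same direction, for 86 genes. Of these 77 were higher (0.684% of tested genes) and 9 lower (0.0799%). Both contrasts contain the same shTRIB3-1 libraries. Of the 77, 53 were also called higher with shTRIB3-2, to a lesser extent. Most were low in control, since 50 had a shCtrl mean under 0.5 FPKM and 34 passed the filter on low values through the shTRIB3-1 libraries alone, and those had to be high there. With all 3 shCtrl libraries at 1 FPKM or more, 16 genes were left. Among them were HSPA1A, HSPA1B, HSPA6, HSPB1, CRYAB, HSPH1, DNAJB1 and BAG3, which are 8 members of the heat shock list, SERPINH1, and BAAT, CSRP2, IER5, LPAR6, MUC13 and PCK1. At a shCtrl mean of at least 5 FPKM, 7 were left, and these were BAG3, DNAJB1, HSPA1A, HSPA1B, HSPB1, HSPH1 and SERPINH1.

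The 8 higher genes that stood apart the most, by the smaller of their 2 differences, were LOC105378690, ANXA1, MAGEB2, TDRG1, LINC02533, CD300LB, IL20RB and PRR20G. LOC105378690 (chromosome 1, 44688314 to 44724828), a long noncoding RNA gene, stood at 0.122, 0.192 and 0.0486 FPKM in shCtrl, 8.39, 8.08 and 6.95 FPKM in shTRIB3-1 and 0.534, 0.625 and 0.868 FPKM in shTRIB3-2, a log2 difference of 3.37 from shTRIB3-2. ANXA1 was at 6.16, 6.26 and 6.10 FPKM in shTRIB3-2, 3.33 below shTRIB3-1 on the log2 scale. MAGEB2 (chromosome X, 30215563 to 30220089), a cancer-testis antigen, had 4 fragments in shCtrl and 383 in shTRIB3-1, and LINC02533 had 0 and 460, at least 160-fold higher. IL20RB (chromosome 3, 136957983 to 137011085), a cytokine receptor chain, was at 0.110, 0.158 and 0.152 FPKM in shCtrl, 2.49, 2.90 and 2.73 FPKM in shTRIB3-1 and 0.363, 0.261 and 0.207 FPKM in shTRIB3-2. These 8 were ranked by the differences given, which are therefore a description. All but IL20RB (0.64) were also called higher than shCtrl with shTRIB3-2. The log2 differences there were 4.56 for ANXA1, 2.75 for PRR20G, 2.63 for TDRG1 and 2.57 for CD300LB. They were 1.84 for LOC105378690, 1.03 for LINC02533 and 1.01 for MAGEB2. All but ANXA1 passed the filter on low values through the shTRIB3-1 libraries alone and had to be high there.

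The 9 lower genes were SAA4, PDE4C, CFAP74, G6PC1, DBH-AS1, C1orf210, CYP3A7, C1orf53 and SLC2A2. G6PC1 (chromosome 17, 42900799 to 42914438) was the most abundant. It stood at 6.98, 6.24 and 7.28 FPKM in shTRIB3-2, against 6.30 to 7.59 FPKM in shCtrl (log2 difference -0.06, adjusted p 0.557), while the shTRIB3-1 libraries lay between 2.80 and 3.13 FPKM, a log2 difference of -1.22 from shCtrl (adjusted p 4.84e-08) and -1.17 from shTRIB3-2. DBH-AS1, an antisense RNA gene, showed the same order, with 4.16 to 4.97 FPKM in shCtrl, 1.70 to 1.94 FPKM in shTRIB3-1 and 3.72 to 4.36 FPKM in shTRIB3-2. SLC2A2 was intermediate with shTRIB3-2, at 2.00 to 2.31 FPKM between the 0.95 to 1.16 FPKM of shTRIB3-1 and the 4.89 to 5.10 FPKM of shCtrl. SAA4, PDE4C and CYP3A7 share 75.6%, 73.8% and 42.6% of their exon bases with another gene on the same strand. CYP3A7 lost its call against shCtrl without shCtrl replicate 1 (-0.91) or shTRIB3-1 replicate 1 (-0.77), and C1orf53 and C1orf210 lost theirs against shTRIB3-2 at -0.80 to -0.98 and at -0.85 and -0.98 when single libraries of either hairpin were left out. With a pseudocount of 1, 0 of the 9 were called against both groups, and 43 genes were higher, all of them among the 77.

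**Figure D5:**
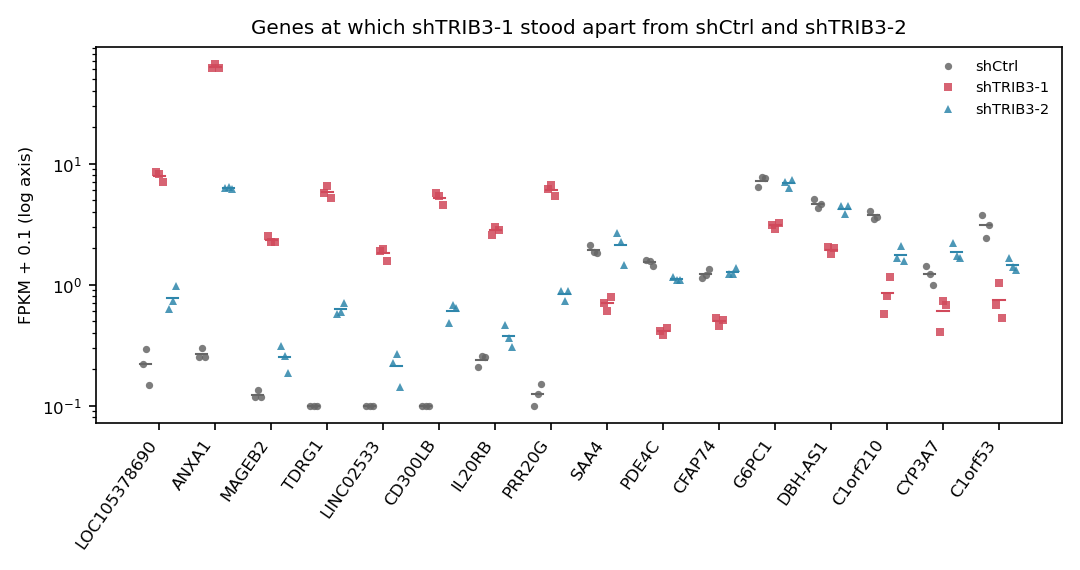
FPKM plus 0.1 on a log axis for the 8 higher and the first 8 lower genes at which shTRIB3-1 stood apart, 3 points per group for the 3 libraries and a bar at their mean. ANXA1 was at 61.1 to 66.3 FPKM in shTRIB3-1 and 6.10 to 6.26 in shTRIB3-2, and G6PC1 was lower in shTRIB3-1 than in both other groups.

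Few genes went opposite ways with the 2 hairpins. Of the 273, 7 had the opposite sign with shTRIB3-2, and 1, CSRP2, was called in opposite directions. CSRP2, a LIM-domain protein of the cytoskeleton, averaged 3.03 FPKM in shCtrl, 6.64 FPKM in shTRIB3-1 and 1.25 FPKM in shTRIB3-2, at log2 differences of 1.11 and -1.21. MUC13, a surface mucin, stood at 2.98, 3.2 and 2.73 FPKM in shCtrl, 6.66, 6.75 and 6.14 FPKM in shTRIB3-1 and 1.78, 1.66 and 2.26 FPKM in shTRIB3-2, differences of 1.11 and -0.63 (adjusted p 1.01e-06 and 1.35e-04). CCL26, an eosinophil chemokine, rose by 2.12 with shTRIB3-1 and differed by -0.45 with shTRIB3-2 (adjusted p 0.0954). These 3 were chosen after their values were seen.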

How the data were processed

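RNA was measured by RNA-seq in 9 HepG2 libraries, 3 each with shCtrl, shTRIB3-1 and shTRIB3-2. The authors deposited 1 table of FPKM with a column for each library. Their methods name STAR for alignment to GRCh38 and DESeq2 for testing, and the submitters' processing notes add HTSeq and R 3.2.0. The annotation release and the strand setting of counting are not given in the sources used here. The methods and the labels name different library kits and media. FPKM does not correct for composition, so a large rise of abundant genes lowers all other values.

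From these values, fragment numbers were recovered as whole multiples, since FPKM is a whole number divided by gene length and library total. All 172769 nonzero values (100%) lay within 0.02 of an integer, and totals were 34206726 to 36311029. Fragments carry no molecular identifiers, so intervals and floors cover counting error only. Pairs of replicates differed by more than sampling noise (chi-square per degree of freedom 3.22 to 7.88 over 12909 genes with at least 10 fragments), so no library was a copy.

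Genes with FPKM of at least 1 in at least 3 of 9 libraries were tested as log2(FPKM + 0.1), which understates the change of low genes, with limma 3.58.1 in R 4.3.3, with 3 group means over 9 libraries, and eBayes with its trend option. All tests are two-sided, with Benjamini-Hochberg adjustment over 11265 genes. An exact permutation test of 3 against 3 libraries cannot go below 0.1 and was not used. Calls needed an adjusted p below 0.05 and a log2 difference beyond 1 in either direction. The model and the recovery were tested on simulated data. Replicate numbers come from the labels, and same-numbered libraries did not deviate together.

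Named genes were the 12 highest and 12 lowest called genes with a mean of at least 5 FPKM in the higher group and no overlap between libraries, the 8 highest and 8 lowest that stood apart from both other groups by the smaller of their 2 differences, up to 4 called members with the largest change in each of the 46 gene lists (the most abundant member where none was called), and TRIB3. Further members are named as examples, and some genes the rule took are not reported here. SLC2A2, the ninth lower gene, the genes among the 16 and 7 that stood apart at higher control levels, and the genes of opposite sign were named after their values were seen. The lists were written from general knowledge and compared with no database, and the members and lists were chosen with earlier results of these data known. Symbols were matched to RefSeq (GRCh38.p14, 11038 of 11265), and exon overlaps were read from GENCODE (GRCh38). Promoter windows, 250 bases before the start, are RefSeq's. The alternatives tried were another pseudocount, no filter, a filter at FPKM of 5, TPM, median centring, quantile normalization, a replicate block, the 6 libraries alone, voom on recovered fragments, and leaving out each library.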

Additional observations from a re-analysis of the deposited data

Results flagged for a closer look

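The 16 genes named as standing apart are listed here because the 2 hairpins differed in their effect against the shared controls. They were selected by limma's test of that difference, so the values describe the selection and test nothing further. The log2 difference, shTRIB3-1 minus shTRIB3-2, was 3.37 for LOC105378690, 3.33 for ANXA1, 3.25 for MAGEB2, 3.22 for TDRG1, 3.14 for LINC02533, 3.13 for CD300LB, 2.92 for IL20RB and 2.86 for PRR20G. It was -1.56 for SAA4, -1.43 for PDE4C, -1.36 for CFAP74, -1.17 for G6PC1, -1.12 for DBH-AS1, -1.11 for C1orf210, -1.66 for CYP3A7 and -1.02 for C1orf53. For G6PC1 and DBH-AS1 the shTRIB3-2 libraries lay near the control level. For C1orf53 and C1orf210 the difference between the hairpins lost its call when single libraries were left out. No group had 4 libraries, so single libraries were not screened for gaps.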

How the results depend on the processing

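With a pseudocount of 1, 376 genes were called higher and 404 lower, 43 higher and 0 lower genes stood apart, and leaving low genes in (no filter) gave 1085 higher, 210 standing apart higher and 638 called with shTRIB3-1 and not with shTRIB3-2. At an FPKM of at least 5, with 7714 genes tested, the counts were 338 higher, 407 lower, 35 and 1 standing apart and 152 called with shTRIB3-1 only, fewer because fewer genes entered. Quantile normalization gave 25 lower genes standing apart, for which the cause was not tested. Leaving out 1 library at a time gave 599 to 632 higher, 653 to 701 lower, 77 to 80 and 7 to 11 standing apart, 8 to 8 heat shock members among the former, and 256 to 295 called with shTRIB3-1 only. Median centring gave 687 higher and 576 lower, a share of 54.4% higher against 46.9%. The median over all genes was -0.111 with TPM and 0.024 with median centring, against -0.056. RPLP0 changed sign with median centring, to 0.00. Of 3082 values of named genes under alternatives, 3028 kept their direction and side of the threshold, 52 lost a call, and TRIB3 gained one with TPM, at -1.04. Among the calls lost with a pseudocount of 1 were those of ISG20 (0.93), PRODH (0.93), HAL (0.99), PMAIP1 (0.75), CXCL2 (-0.69) and MT1H (0.86). Leaving out single libraries ended the calls of CYP3A7, C1orf53 and C1orf210 given above, of PMVK (0.92 and 0.97), SLC39A14 (-0.98 to -1.0), H2BC4 (0.98) and SQSTM1 (1.00 after rounding). Of 1656 counts of list members, 67 moved by more than 1.5 times. Same-numbered libraries share only a number, since the correlations of their deviations ran from -0.074 to 0.093 over 9 pairs. With the replicate block, 607 genes were higher and 688 lower, 86 stood apart, and no count above moved by more than 1.5 times. Depth limits genes of few fragments, such as HAMP with 29 fragments in shTRIB3-1.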
